A study of Drosophila melanogaster with 10 samples.

Results

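The genes described here encode subunits of the machinery that cuts the 3' end of messenger RNA before the poly(A) tail is added. They were measured in mushroom body neurons of Drosophila melanogaster at the onset of metamorphosis. The 8 genes are Cpsf5 and Cpsf6 (cleavage factor Im), Cpsf73, Cpsf100 and Cpsf160 (cleavage and polyadenylation specificity factor, CPSF), and CstF50, CstF64 and su(f) (cleavage stimulation factor, CstF). The group was chosen on the difference between 5 h and 0 h after puparium formation, where Cpsf5 had already been seen to read higher, in order to ask whether other subunits moved with it. Every probe set, the unit in which an array measures a transcript, was taken if its annotation named 1 member and no other gene. That gave 7 probe sets for 7 of the 8 genes, among 10844 genes named by 1 symbol; su(f) had none and was not analysed here. Because that difference chose the group, the members' 5 h and 0 h values are given as a description, with no test read from them.

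In the nucleus, CPSF recognises the poly(A) signal in a new transcript and makes the cut, CstF binds the U-rich or GU-rich stretch beyond it, and cleavage factor Im binds UGUA motifs upstream. In mammals, cleavage factor Im favours the use of distal poly(A) sites, so its amount bears on the length of 3' untranslated regions. Neurons of flies and mammals are known for long 3' untranslated regions, and Elav-family proteins take part in that choice in flies.

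All samples shared 1 genotype. On a yw/w background the animals carried UAS-EcRB1[W650A], which encodes a dominant negative receptor for the steroid hormone ecdysone, opposite UAS-mCD8::GFP, which encodes a membrane-bound green fluorescent protein. Both were driven by a single copy of OK107-GAL4 (OK107-GAL4/+), which is active in mushroom body neurons, so that labelled cells in every sample had both products. The groups were 6 arrays from pupae at 0 h and 3 from pupae at 5 h after puparium formation. For 1 more array the title gives 5 h and the age label 0 h; it belongs to neither group, and its values are given separately. Each sample pooled 40 laser captures of about 100 cell bodies, and 22 ng of RNA was amplified in 2 rounds; the number of animals behind a sample is not stated, so the spread between samples may be partly technical. Since the dominant negative receptor is present at both ages and y,w animals were not analysed here, the values compare ages only, and do not show which genes answer to the receptor. In captured tissue, a change in the share of cells of a type and a change in RNA per cell cannot be told apart.

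Most mushroom body markers in the captures read above background. Background is taken as 3.73 on the log2 scale, the highest reading of 8 probe sets for mouse and yeast sequences. The defining gene ey read 9.32 ± 0.39 (SD) over the 6 arrays at 0 h and 9.22 ± 0.04 over the 3 at 5 h. In contrast, dac (means 4.35 and 4.43) and Dop1R1 (4.46 and 4.21) read only slightly above background. Of 9 measured mushroom body markers, only sNPF lay below background at both ages. Markers of other cells were present too. The glial gene repo read 6.53 ± 0.61 and 7.36 ± 0.34, and the fat body gene apolpp read 8.81 ± 0.52 and 9.64 ± 0.27. Their lists were mixed: 4 of 7 glial markers read higher at 5 h and 3 lower (Gs2, gcm and moody; list median 0.16), and apolpp was the 1 of 4 fat body markers to read higher, with Lsp2, Fbp1 and Fbp2 lower (list median -0.29). The summed signal of 7 glial markers ran from 8.20 to 9.62 at 0 h and from 9.31 to 9.51 at 5 h (log2), and gcm lay below background. The arrays at 0 h fall into replicates 1 to 3 and replicates 4 to 6. These sets correlated less with each other (Pearson r across probe sets 0.948 to 0.974) than within the first (0.989 to 0.991) or the second set (0.970 to 0.981). No label names a batch for this split. The array with conflicting labels correlated at 0.9907 to 0.9913 with the arrays at 5 h, which correlated at 0.9902 to 0.9951 with each other. Its correlation was 0.983 to 0.989 with 0 h replicates 1 to 3 and 0.957 to 0.970 with replicates 4 to 6. No age was assigned to it from these values. The 3' bias of the RNA, the actin 3' control minus the 5' control, ran from 7.45 to 8.10 at 0 h and from 8.47 to 8.63 at 5 h (log2; two-sided exact permutation p = 0.012, the smallest that 84 splits allow). The ages did not overlap in this measure. The same measure from the GAPDH controls overlapped, from 4.36 to 5.66 at 0 h and from 5.49 to 5.64 at 5 h (difference 0.40; exact permutation p = 0.17).

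Among the cleavage factors, Cpsf5 stood far above its 0 h level at 5 h and its binding partner Cpsf6 did not. Cpsf5 encodes the small, Nudix-fold subunit of cleavage factor Im that contacts the UGUA motif. At 0 h its log2 signal was 6.95, 6.28 and 6.41 in replicates 1 to 3 and 5.90, 6.07 and 6.17 in replicates 4 to 6. At 5 h it was 7.86, 8.14 and 8.42. All arrays at 5 h lay above all arrays at 0 h, and within 0 h all of replicates 1 to 3 lay above all of replicates 4 to 6. The means were 6.30 ± 0.37 (SD, n = 6) and 8.14 ± 0.28 (SD, n = 3), a log2 difference of 1.84 with a standard error of 0.21, or 3.59-fold (95% interval 2.62 to 4.92, which does not allow for Cpsf5 having been picked as a large difference). Of all 13966 probe sets, 99.957% had a smaller value of this difference. The difference was 1.59 ± 0.18 (SE) against 0 h replicates 1 to 3 and 2.09 ± 0.15 (SE) against replicates 4 to 6. The array with conflicting labels read 7.59, between the highest array at 0 h and the lowest at 5 h. With that array counted as 0 h the difference was 1.66, and with each array's actin 3' bias added to the model it was 1.36; Cpsf5 was not past the limma threshold in either fit. The summed glial signal also read higher at 5 h than in most arrays at 0 h, but the highest array was at 0 h (9.62, against at most 9.51 at 5 h). The part of glial signal in the value of Cpsf5 was not tested.

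Cpsf6 encodes the larger subunit of cleavage factor Im, with an RNA recognition motif, and pairs with Cpsf5 in the complex. It read 8.65, 8.27 and 8.01 in 0 h replicates 1 to 3, 6.89, 7.10 and 7.07 in replicates 4 to 6, and 8.08, 7.94 and 8.26 at 5 h. The arrays at 5 h lay among or just below replicates 1 to 3 and well above replicates 4 to 6, so the ages overlapped. The log2 difference was 0.43 with a standard error of 0.36, and its direction turned with the 0 h arrays used: it was -0.22 ± 0.15 (SE) against replicates 1 to 3 and 1.08 ± 0.13 (SE) against replicates 4 to 6. Cpsf6 was the member whose value depended most on the choice of 0 h arrays. Its SD at 0 h, 0.74, was larger than that of 98.5% of all probe sets, whose median was 0.21.

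In CPSF, the 3 subunits read slightly higher at 5 h than at 0 h, with ages that overlapped in each. Cpsf73 encodes the endonuclease that makes the cut. It read 5.49, 5.36 and 5.33 in 0 h replicates 1 to 3, 4.74, 5.67 and 5.86 in replicates 4 to 6, and 5.85, 5.76 and 5.98 at 5 h. The 5 h arrays lay above 5 of the 6 arrays at 0 h in full, and overlapped with replicate 6. The log2 difference was 0.46 ± 0.20 (SE), a 1.37-fold value, and it was nearly the same against either set of 0 h arrays, 0.47 and 0.44. Its standard error differed more, at 0.09 against replicates 1 to 3 and 0.25 against replicates 4 to 6, where replicate 4 read lowest.

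Cpsf100 encodes the relative of Cpsf73 that lacks its catalytic activity and binds it. It ran from 6.60 to 7.79 at 0 h, with a median of 7.52, and read 7.59, 7.65 and 7.93 at 5 h. Replicate 4 lay well under the rest at 0 h, and the log2 difference was 0.33 ± 0.22 (SE). Cpsf160 encodes the large scaffold subunit of CPSF. It read 5.37, 4.81 and 5.02 in 0 h replicates 1 to 3, 4.65, 4.12 and 4.43 in replicates 4 to 6, and 5.25, 5.31 and 5.27 at 5 h. Its arrays at 5 h were nearly equal and lay below only replicate 1 at 0 h. The log2 difference, 0.54 ± 0.22 (SE), or 1.46-fold, was the largest after that of Cpsf5, at 0.21 against replicates 1 to 3 and 0.88 against replicates 4 to 6.

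In CstF the measured subunits read in opposite directions. CstF50, the WD-repeat subunit, ran from 5.84 to 6.62 at 0 h (median 6.34) and read 6.40, 6.54 and 6.82 at 5 h, a log2 difference of 0.28 ± 0.16 (SE). CstF64, whose RNA recognition motif binds the stretch beyond the cut, read 5.35, 5.72 and 5.43 in 0 h replicates 1 to 3, 5.77, 5.90 and 5.94 in replicates 4 to 6, and 5.54, 5.35 and 5.45 at 5 h. It was the single member with a lower mean at 5 h, by a log2 difference of -0.24 ± 0.14 (SE), or 1.18-fold. That difference came mainly from replicates 4 to 6: it was -0.05 against replicates 1 to 3 and -0.42 against replicates 4 to 6.

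Across the 7 measured members, 6 read higher and 1 read lower at 5 h. The median difference of all probe sets was -0.07, and 63.5% of them had a difference below 0.0019. The share of all probe sets with a smaller difference was 94.0% for Cpsf160, 92.1% for Cpsf73 and 91.3% for Cpsf6. It was 87.8% for Cpsf100, 86.2% for CstF50 and 13.8% for CstF64. In the limma fit across all probe sets, 1 of the 7, Cpsf5, passed a Benjamini-Hochberg adjusted p of 0.05, where 1.25% of all 13966 probe sets did in either direction and 1.01% did as higher at 5 h. Those shares rest on a count of 174 (141 higher and 33 lower; 153 and 101 when quantile normalization was repeated), which was 19 without 5 h replicate 3, 27 without replicate 2, 47 without replicate 1, 98 and 105 without 0 h replicates 2 and 3, and 395 without 0 h replicate 1. The member that passed was also the only 1 with no overlap between the ages, as had 9.79% of all probe sets in either direction and 5.39% with 5 h higher. Nothing is read from these counts, since the same difference chose the group. For the other 6 members the 95% intervals leave room for smaller differences: they reached a 2.32-fold value for Cpsf6, 2.04-fold for Cpsf160 and at most 1.86-fold for the rest. The intervals began just above no change for Cpsf73 (1.01-fold) and Cpsf160 (1.04-fold), and included no change for Cpsf6, Cpsf100, CstF50 and CstF64. They are not adjusted for the number of probe sets. The limma adjusted p was 0.32 for Cpsf73 and 0.29 for Cpsf160.

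**Figure D1:**
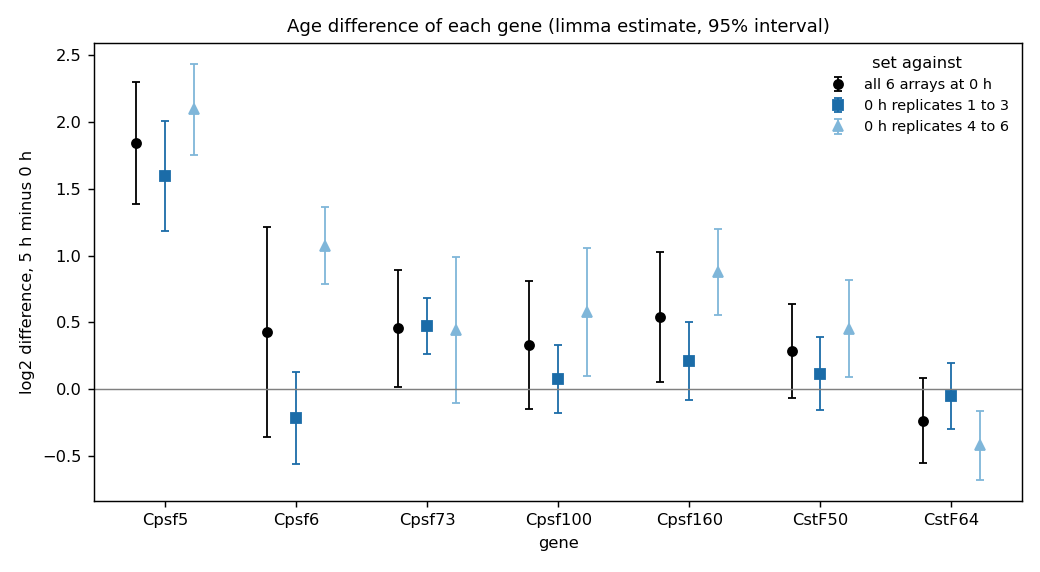
Log2 difference of 5 h minus 0 h (vertical axis) for each gene as the limma estimate, with bars for the 95% interval, set against all 6 arrays at 0 h (circles), replicates 1 to 3 (squares) or replicates 4 to 6 (triangles). Cpsf5 lies between 1.59 and 2.09 in all 3, whereas Cpsf6 moves from -0.22 to 1.08 with the 0 h arrays used.

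A comparison within each array removes whatever shifts all of an array's probe sets alike. The log2 ratio of Cpsf5 to each other member was centred on its own mean over the 6 arrays at 0 h. Against Cpsf6 the centred ratio ran from -0.62 to 0.47 at 0 h and from 1.15 to 1.57 at 5 h, and against Cpsf100 it ran from -0.22 to 0.40 and from 1.38 to 1.59. Over all 6 ratios, values at 0 h reached at most 0.99, for CstF64, and values at 5 h were at least 1.05, for Cpsf160, so the ages did not overlap in any of them. The mean change of the ratio ranged from 1.30 against Cpsf160 to 2.08 against CstF64. As Cpsf5 was chosen for its difference with age and enters all 6 ratios, they are not separate observations and are a description too. In the array with conflicting labels the centred ratio lay between the ages for each of the 6, for example at 0.64 against Cpsf6.

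**Figure D2:**
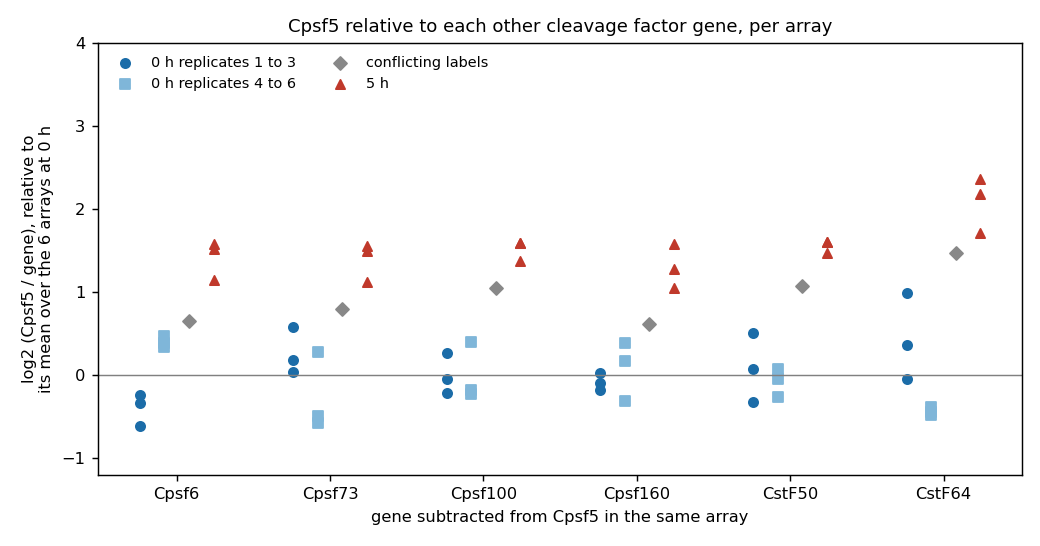
Log2 ratio of Cpsf5 to each of the other 6 genes in the same array (vertical axis), relative to the mean of that ratio over the 6 arrays at 0 h; circles are 0 h replicates 1 to 3, squares 0 h replicates 4 to 6, diamonds the array with conflicting labels and triangles 5 h. The 5 h arrays lie between 1.05 and 2.36 and above every 0 h array of the same gene.

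The difference that chose the group used all 6 arrays at 0 h, but not the gap between replicates 1 to 3 and 4 to 6. Most members differed between these sets. In 6 of the 7 the replicates 1 to 3 and 4 to 6 did not overlap, as in 43.6% of all probe sets. Of these, 5 (Cpsf5, Cpsf6, Cpsf100, Cpsf160 and CstF50) read higher in replicates 1 to 3, as 16.3% of all probe sets did without overlap, and CstF64 read lower. The gap was largest for Cpsf6 (1.29), followed by Cpsf160 (0.67), Cpsf5 and Cpsf100 (0.50 each) and CstF50 (0.34), against a median of -0.11 over all probe sets; for CstF64 it was -0.37. Cpsf73, with a gap of -0.03, overlapped. The split was seen in the arrays themselves and is named by no label, so the gaps are given with no test.

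The members' neighbours on the chromosomes were looked at after the members' values had been seen. On the Release 6 reference assembly, CstF64 and Cpsf73 are adjacent on chromosome arm 3R and their annotated intervals overlap, yet their differences with age had opposite signs, -0.24 and 0.46. Cpsf5, on arm 3L, overlaps at one end with Atat, which encodes a tubulin acetyltransferase. Atat read 6.31 at 0 h and 6.60 at 5 h, a log2 difference of 0.30 ± 0.22 (SE; limma adjusted p = 0.53), and CG4022 on the other side of Cpsf5 differed by -0.19 ± 0.12 (SE; adjusted p = 0.48). Neither neighbour passed the test. The sources used here do not give the strand or the part of the transcript that each probe set reads.

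Other genes that act on mRNA 3' ends were listed by role, and 2 of the 65 with a probe set passed: Wdr33 and elav, both higher at 5 h. With 1 probe set for each gene, 1.35% of all genes passed, and 1.13% passed as higher at 5 h. Wdr33, the CPSF subunit that in humans contacts the poly(A) signal itself, read from 4.19 to 4.65 at 0 h (median 4.49) and 5.03, 5.16 and 5.16 at 5 h. The ages did not overlap, and Wdr33 rose 1.57-fold, a log2 difference of 0.65 ± 0.11 (SE; limma adjusted p = 0.021). It read 0.61 higher against 0 h replicates 1 to 3 and 0.70 higher against replicates 4 to 6. The call was lost without 5 h replicate 1, 2 or 3 (adjusted p = 0.069, 0.13 and 0.16), with the array of conflicting labels as 0 h (adjusted p = 0.18), and with actin 3' bias in the model (a difference of 0.27).

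The other 7 of the 8 measured core cleavage and polyadenylation genes did not pass, and the median of the 8 was 0.05. They were the zinc finger subunit gene Clp, the scaffold gene Sym, the cleavage factor II genes Pcf11 and cbc, the poly(A) polymerase gene hrg, the nuclear poly(A)-binding protein gene Pabp2, and snama, with differences from -0.13 to 0.21; the mean of Pcf11 over the 9 arrays did not reach background. Fip1 was not analysed here. Pabp2 read 8.88, 8.68 and 8.62 in 0 h replicates 1 to 3, 7.61, 6.88 and 6.97 in replicates 4 to 6, and 7.90, 8.09 and 8.02 at 5 h. It passed as lower against the first set (-0.72, limma adjusted p = 0.0025) and as higher against the second (0.85, adjusted p = 0.012), so that its direction rested on the 0 h arrays used. With Wdr33, that made 2 of the 8 core genes past the threshold against either set, beside 8.69% and 23.3% of all genes. Among the members, against these sets 2 (Cpsf5 and Cpsf73) and 4 (Cpsf5, Cpsf6, Cpsf160 and CstF64, the last lower) were past the threshold, as were 8.11% and 22% of all probe sets; nothing is read from these counts either.

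The elav gene, whose RNA-binding protein shapes poly(A) site choice in fly neurons, was the 1 of 6 regulators of that choice to pass. It read from 3.73 to 4.48 at 0 h (median 4.29) and 4.86, 5.23 and 5.09 at 5 h. Its lowest array at 0 h, replicate 5, lay at background. The 2 further probe sets of genes in this list did not pass. The elav probe set used here rose by 0.86 ± 0.17 (log2, SE, limma adjusted p = 0.033). The call was lost without 0 h replicate 3 or 6 and without any of the 5 h arrays (adjusted p = 0.057, 0.058, 0.073, 0.20 and 0.22 for 5 h replicates 1 to 3 in turn). The array with conflicting labels read 4.02, within the range at 0 h, and the call was also lost with that array counted in either age (adjusted p = 0.064 as 0 h and 0.18 as 5 h) and with actin 3' bias in the model (a difference of 1.06, adjusted p = 0.9997).

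None of the genes of the other 5 lists passed. Of 12 genes of Integrator, which cuts small nuclear RNAs with relatives of Cpsf73 and Cpsf100, 4 read higher and 8 lower (median -0.04), and IntS4 and IntS14 had the largest differences (0.49 and 0.41, limma adjusted p = 0.105 and 0.33). Of 5 genes for histone mRNA 3' ends, the stem-loop binding protein gene Slbp differed by 0.40 and Ars2 by 0.37 (adjusted p = 0.32 and 0.43), with a list median of 0.16. Of 15 genes for tail binding and removal, the deadenylase gene PAN2 differed by 0.71 and the CCR4-NOT subunit gene Not3 by 0.56 (adjusted p = 0.29 and 0.43; median 0.04). Of 10 genes for elongation and termination, Fcp1, which encodes a phosphatase of the RNA polymerase II tail domain, differed by 0.91, and the nuclear exonuclease gene Rat1 by 0.75 (adjusted p = 0.071 and 0.29; median -0.004). Fcp1 read from 4.27 to 5.47 at 0 h and from 5.85 to 6.04 at 5 h, with no overlap. Of 9 genes for cap binding and export, the export adaptor gene Ref1 differed by 0.52 and the THO complex gene tho2 by 0.41 (adjusted p = 0.30 and 0.39; median 0.13). The median over all genes was -0.06.

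**Figure D3:**
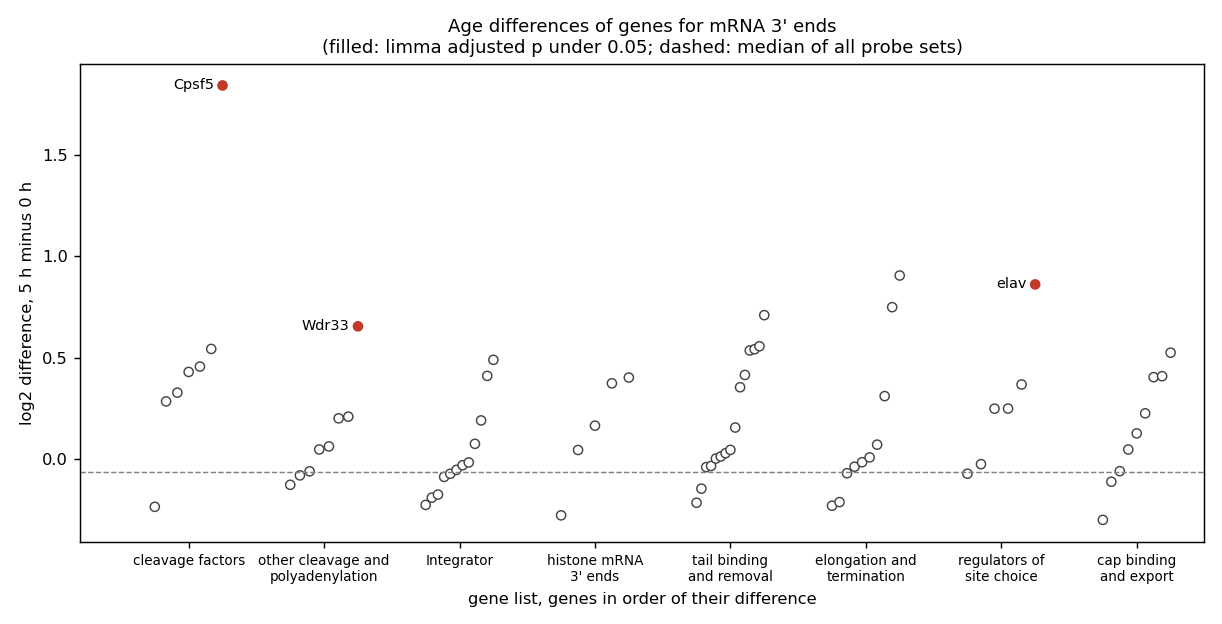
Log2 difference of 5 h minus 0 h (vertical axis) for the 7 measured cleavage factors and for 65 other genes in 7 lists by role; each point is 1 gene, filled where the limma adjusted p was under 0.05, and the dashed line is the median of all probe sets, -0.07. Cpsf5 (1.84), elav (0.86) and Wdr33 (0.65) are the filled points.

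The pattern of Cpsf5 over the 9 arrays was compared with that of 5192 other probe sets above background that carry 1 gene name other than a CG number. Likeness was measured as the root mean square difference between log2 profiles, each centred on its own mean, and the smallest values belonged to Treh (0.24), mre11 (0.27), wun2 (0.29), ImpE1 (0.32) and nrv2 (0.33). Treh encodes trehalase, mre11 a DNA break repair protein, wun2 a lipid phosphatase, ImpE1 the product of an ecdysone-inducible gene and nrv2 a sodium pump subunit found in glia. The median over the compared probe sets was 0.94. The 5 genes read higher at 5 h by log2 differences from 1.28 for nrv2 to 2.17 for Treh. Cpsf5 was chosen on its difference with age, so likeness over these arrays largely restates that difference, and nothing is read from it. Of the other cleavage factors, Cpsf160 was nearest with 0.65 and CstF64 farthest with 1.08. In the array with conflicting labels Treh read 7.61, mre11 5.79, wun2 7.16, ImpE1 6.15 and nrv2 5.36. Each of these values lay above the gene's highest array at 0 h.

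Markers of other cell types that passed the same test stood beside these differences. The glial markers bdl and nrv2 rose by 1.84 and 1.28 (log2, limma adjusted p = 0.00068 and 0.018), as 2 of 7 glial genes. The muscle gene bt rose by 1.06 (limma adjusted p = 0.022) as 1 of 4. The other 3 muscle genes, Act88F, Tm2 and up, read lower (-0.27, -0.09 and -0.13, list median -0.11), with Act88F and Tm2 below background. Of the mushroom body genes, 1 of 9, toy, rose by 1.06 (adjusted p = 0.038), and of 6 genes of neurons in general, 1, elav, rose, while para lay below background. None of 4 fat body, 5 hemocyte, 8 salivary gland or 6 neuroblast genes passed; the largest differences were -1.14 for Fbp2 and 0.83 for apolpp, 1.39 for crq and 0.40 for Pxn, -1.63 for Eig71Ea and -1.11 for Eig71Eg, whose 0 h replicate 2 read 10.01 and 7.37, and 0.59 for mira and -0.26 for wor. The hemocyte genes Hml, NimC1 and srp and the neuroblast genes ase, insc and grh lay below background at both ages, as did Sgs3, Sgs4 and Sgs5. The part of any of these cells in the difference of Wdr33 was not tested.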

How the data were processed

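Per the submitters' processing notes, the authors made the deposited log2 values with RMA in Affymetrix Expression Console; the sources used here name no versions and do not say which arrays were run through RMA as a batch. RMA subtracts background, forces the arrays to a common distribution and reduces each probe set to a single value. The medians of the 10 deposited arrays ran from 4.30 to 4.44. No counts underlie array values, so precision is limited by how many arrays there are.

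Of 14010 rows, 44 Affymetrix controls were left out and 13966 probe sets tested. Gene names came from the platform annotation, in which 12443 probe sets had 1 symbol, 327 several and 1196 none; updating through gene identifiers changed 0. Ages were compared in limma 3.58.1 (R 4.3.3; lmFit and eBayes, two-sided, no filter). P-values were adjusted by Benjamini-Hochberg over the 13966 probe sets, with a threshold of 0.05. For a list gene with several probe sets, the one of highest mean was used. The fit was tested on simulated data. Alternatives covered the filter, the normalization, array weights, the array of conflicting labels, the 3' bias, both sets of 0 h arrays, a replicate block and leaving out each array.

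The members and lists were chosen with earlier results of these data known. Named genes were all members, up to 4 genes past the threshold in each list or else the 2 with the largest differences, and the 5 genes most like Cpsf5. Genes named outside this rule are Pabp2 and the rest of the core list, the neighbours, and markers given for tissue identity. List genes that no probe set named alone (Fip1, IntS3, IntS5, Nab2, Not1, CNOT4, Spt6 and sbr, and some markers) were not analysed here. Coordinates are left out because no build is stated for the array.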

Additional observations from a re-analysis of the deposited data

Results flagged for a closer look

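The array whose title gives 5 h and whose age label gives 0 h read 7.59 for Cpsf5, above every array at 0 h (highest 6.95). It also read above them, by small margins, for Cpsf73 (5.92, highest at 0 h 5.86) and Cpsf160 (5.42, highest 5.37). For Cpsf5 it also lay below the lowest array at 5 h, 7.86. For Cpsf160 it lay above the highest array at 5 h, 5.31. These values belong to no group and were not tested. The share of all probe sets in which this array read above every array at 0 h was not counted, so nothing is read about the members. Among the 6 arrays at 0 h, no array of any of the 7 members lay far enough from the others to be singled out as an outlier.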

How the results depend on the processing

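With the 20 alternatives to the fit, Cpsf5 read higher at 5 h throughout (log2 difference 1.36 to 2.09) and passed the limma threshold in 18. It did not pass with the array of conflicting labels as 0 h (1.66, adjusted p = 0.064) or with the actin 3' bias as a covariate (1.36, adjusted p = 0.9997), which the ages do not share. Leaving out each array in turn gave 1.71 to 1.98. Cpsf5 was chosen on this difference and the fits share arrays, so these results are a description and no separate test. All probe sets past the threshold numbered 174; counting the array of conflicting labels as 0 h left 0 (1693 at an unadjusted p of 0.05), the 3' bias covariate also left 0 (552 unadjusted), and counting that array as 5 h gave 352. Array weights gave 1809, the replicate block 743, 0 h replicates 1 to 3 only 1132, replicates 4 to 6 only 3077, and leaving out single arrays 19 to 395. Members past the threshold were 0 in the first 2 of these settings, 2 with array weights (Cpsf5 and Cpsf73), with the replicate block and against replicates 1 to 3, 4 against replicates 4 to 6, and 1 without each array. The other core genes past the threshold were 0 in the first 2 settings, 2 (Wdr33 and Pabp2) with the replicate block and against either 0 h set, and 0 to 1 without each array.

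Of 120 results for the other 6 members, 108 kept their direction and side of the threshold, 6 went past it and 6 turned sign. With the 3' bias covariate the difference was 0.076 for CstF64, -0.31 for Cpsf100, -0.11 for CstF50 and -0.36 for Cpsf6, and for Cpsf6 it was -0.22 with the replicate block and against 0 h replicates 1 to 3; the cause was not tested. The values do not settle whether equal replicate numbers pair the samples. The correlation of deviations of same-numbered arrays was -0.40, 0.0049 and 0.22. Each of 0 h replicates 1 to 3 correlated best with 5 h replicate 3 (0.40, 0.25 and 0.22). Deviations at 0 h were taken from the mean of all 6 arrays, so they also carry the split between replicates 1 to 3 and 4 to 6. The actin 3' bias difference, 0.74, was 0.64 against replicates 1 to 3 and 0.85 against replicates 4 to 6 (both exact permutation p = 0.10, the smallest possible for 3 against 3), and 0.67 to 0.80 without each array.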
